A study of Mus musculus with 6 samples.

Results

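Potassium channel genes were taken as the 92 genes of the deposited count table whose symbol is Kcn followed by lower-case letters and a number, out of 27179 genes in all. The rule used the symbol and no measured value, and it takes in pore-forming subunits together with the auxiliary subunits that share the Kcn stem. RNA was sequenced from C2C12 cells, an established line of mouse myoblasts that leave the cell cycle and fuse into multinucleated fibres when serum is lowered. The 3 myotube libraries came from cultures held at 100% confluence for 3 days and then given 2% horse serum with insulin, transferrin, selenium and ethanolamine during 5 days. The 3 myoblast libraries came from sub-confluent cultures in 10% fetal bovine serum. Both media were high-glucose DMEM with 4 mM L-glutamine, and all 6 libraries are of the same line, which carries no stated transgene or deletion. Serum, supplement, cell density and differentiation changed together between the groups and cannot be told apart. The labels state a triplicate harvest without saying that the 3 samples were grown apart, so the spread behind each p-value is that of these samples and may be technical.

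Potassium channels are membrane pores that let potassium ions leave or enter a cell along their electrochemical gradient, and so set the resting potential and end action potentials. Voltage-gated channels of the Kcna to Kcnd, Kcnh and Kcnq families open on depolarisation, Kcnj inward rectifiers hold the membrane near the potassium equilibrium potential, Kcnk channels with a double pore domain carry background leak, and Kcnm and Kcnn channels open with intracellular calcium. In muscle, inward rectifier current and the hyperpolarisation it brings are known to precede myoblast fusion, and potassium conductances shape the excitability of the finished fibre.

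Library totals ranged from 7370169 to 8339589 counts in myotubes and from 10076945 to 11723881 in myoblasts. The culture labels were checked against marker lists. All 8 myotube markers, among them Myog and Ckm, rose, with a summed level of 13400 to 14000 CPM, counts scaled to library size with TMM factors, in myotubes against 81.4 to 98.8 CPM in myoblasts. Of 6 myoblast markers 5 fell, with sums of 330.0 to 344 CPM in myotubes against 1190.0 to 1210.0 CPM in myoblasts. Most of the fall was in Mki67 (means of 34.1 CPM in myotubes and 557 CPM in myoblasts), Id3 (5.31 and 260 CPM) and Ccnb1 (4.38 and 71.1 CPM). Myod1 and Myf5 stayed near their myoblast level, in ratios of 0.897 and 0.912, and Pax7 was not called (63.7 and 59.1 CPM). Among markers of other cell types, Snap25 and Gad1 of neurons, Sox10 of Schwann cells, Adgre1 of macrophages and Adipoq of adipocytes had 0 counts in every library. The summed level of 6 neuronal markers was 13.0 to 21.5 CPM in myotubes and 143 to 162 CPM in myoblasts, where Nefl alone had a mean of 12.9 and 149 CPM. For 4 smooth muscle markers it was 192 to 236 CPM in myotubes and 144 to 151 CPM in myoblasts, and for 4 cardiac markers, Myh6 among them, 31.9 to 37.9 CPM in myotubes and 2.51 to 4.14 CPM in myoblasts. The sums of 4 Schwann cell markers (5.7 to 6.43 CPM in myotubes, 1.08 to 2.45 CPM in myoblasts), 4 macrophage markers (2.28 to 2.84 and 0.18 to 0.282 CPM), 4 endothelial markers (1.01 to 1.71 and 0.376 to 0.718 CPM) and 4 adipocyte markers (0.428 CPM or less in every library) were low. The part of these levels in the results below was not tested.

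Most potassium channel genes were silent or nearly so in these cells. Of the 92, 30 had 0 counts in all 6 libraries and 22 had 1 to 10 counts in total. In at least 3 libraries 24 reached 10 or more counts, and 23 entered the test. Of all 27179 genes, 8724 had 0 counts in all 6 libraries, a share near that of the 92. Over the same genes 12868 reached 10 or more counts in at least 3 libraries and 12800 entered the test, larger shares than among the 92. A gene could enter through the group in which it is high: 11 of the 23 had 10 or more counts in every library of both groups, 9 only in the myotube libraries, 2 only in the myoblast libraries and 1 in neither. Of the 23 tested, 13 rose in myotubes, 6 fell and 4 did not pass (edgeR's quasi-likelihood test, Benjamini-Hochberg adjusted p of 0.05 over 12800 genes). Over all genes tested 79.5% passed, 40.2% higher and 39.2% lower, and 19 of 23 members is a share near that background. The test against 2-fold was passed by 12 members upward and 5 downward, where 12.4% of all genes tested passed upward and 9.2% downward. Since members could enter through 1 group alone, these counts are a description. The median log2 change was 1.35 over the tested members and 0.02 over all genes tested. For the member at 0 counts in myoblasts, estimate and bound both lie above 1.35, so using the bound could not move the median. Among the 23, the groups did not overlap for 14 members on the higher side and 6 on the lower side, where the share over all genes was 80.5%. In bulk RNA, a smaller number of cells with a transcript and less of it in each cell cannot be told apart.

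**Figure D1:**
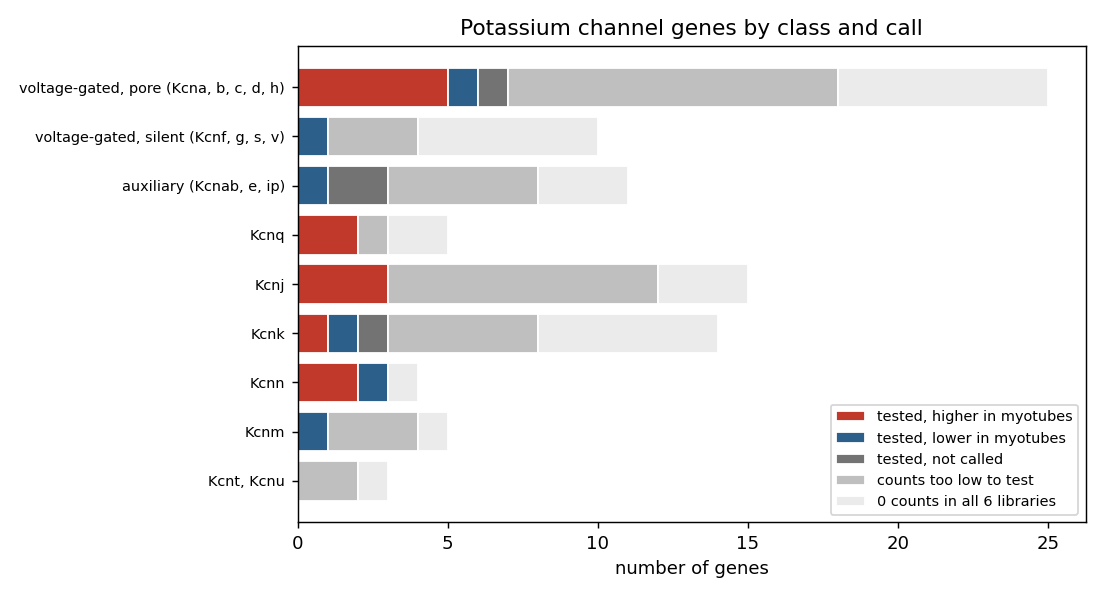
Number of potassium channel genes in each class, split into those higher in myotubes, lower in myotubes, tested and not called, too low in counts to test, and at 0 counts in all 6 libraries. All 3 tested Kcnj genes were higher in myotubes, and in the class of 25 pore-forming voltage-gated genes 5 were higher and 1 lower.

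The calcium-activated Kcnn family changed its leading member. Kcnn3, which encodes the small-conductance channel SK3 known from immature and denervated muscle, had 103, 111 and 109 CPM in the myotube libraries and 2.51, 2.44 and 1.88 CPM in the myoblast libraries. Every myotube library stood far above every myoblast library, and the gene rose by 5.54 on the log2 scale (SE 0.10, adjusted p = 3.22e-25). Kcnn4 encodes the intermediate-conductance channel, which other proliferating cells also use, and had 20.8, 19.6 and 17.8 CPM in myotubes against 63.2, 61.3 and 54.5 CPM in myoblasts. It fell by 1.63 (SE 0.08, adjusted p = 1.43e-15), without overlap between the groups. Kcnn1, the SK1 gene, had 11.3, 11.5 and 12.1 CPM in myotubes against 2.78, 2.60 and 1.69 CPM in myoblasts, and rose by 2.29 (SE 0.18, adjusted p = 1.02e-11). Its exons overlap an annotated antisense transcript over 2.88% of their length. Kcnn2 had 0 counts in every library, which allows up to 0.134 CPM in the myotube group and 0.088 CPM in the myoblast group at 3 counts per group.

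Levels of different genes compare only per length. Per kilobase of annotated exon, Kcnn3 had 10.3 ± 0.387 CPM in myotubes and 0.218 ± 0.0329 CPM in myoblasts, and Kcnn4 had 3.79 ± 0.297 CPM in myotubes and 11.7 ± 0.896 CPM in myoblasts (SD, n = 3 each). Kcnn3 made up 60.1 to 62.9% of the family's level per kilobase in myotube libraries and 1.61 to 1.82% in myoblast libraries. The share of Kcnn4 was 21.1 to 24.9% in myotube libraries and 93.6 to 95.1% in myoblast libraries, and that of Kcnn1 was 14.8 to 16.0% in myotube libraries and 3.3 to 4.6% in myoblast libraries.

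**Figure D2:**
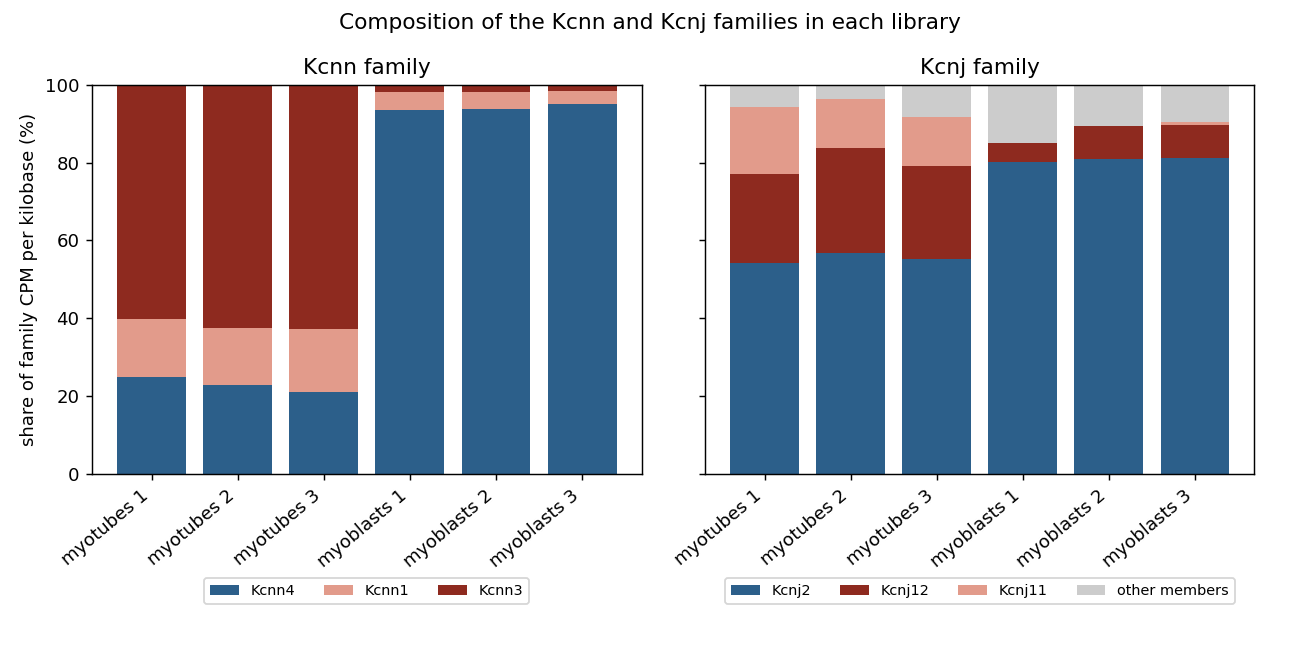
Share of each gene in the summed CPM per kilobase of its family, for the Kcnn family (left) and the Kcnj family (right), 1 bar per library with the 3 myotube libraries left of the 3 myoblast libraries. Kcnn3 takes 60.1% or more of the Kcnn bar in myotubes and 1.82% or less in myoblasts, and the Kcnj2 part of the Kcnj bar is 54.2 to 56.8% in myotubes and 80.1 to 81.2% in myoblasts.

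In the mouse assembly GRCm38 Kcnn3 (Entrez gene 140493) lies on chromosome 3 at 89520164 to 89672494, Kcnn1 (84036) on chromosome 8 at 70843158 to 70865691 and Kcnn4 (16534) on chromosome 7 at 24369826 to 24385212, and the counts cover annotated exons. The start regions of these genes, which moved in opposite directions, and of the inward rectifier gene Kcnj2 described below are shown with the letters CAGCTG in capitals, an E-box form bound by myogenic factors. Each runs 5′ to 3′ on the gene's strand, from 250 bases before to 50 after a RefSeq start of build GRCm38.p6.
Kcnn3 (chr3:89519914-89520213, plus strand): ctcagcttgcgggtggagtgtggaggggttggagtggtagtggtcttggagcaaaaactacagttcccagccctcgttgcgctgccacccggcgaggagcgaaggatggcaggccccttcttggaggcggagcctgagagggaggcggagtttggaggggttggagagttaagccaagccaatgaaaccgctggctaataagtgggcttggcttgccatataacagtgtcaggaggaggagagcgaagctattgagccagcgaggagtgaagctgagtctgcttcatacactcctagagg
Kcnn1 (chr8:70863209-70863508, minus strand): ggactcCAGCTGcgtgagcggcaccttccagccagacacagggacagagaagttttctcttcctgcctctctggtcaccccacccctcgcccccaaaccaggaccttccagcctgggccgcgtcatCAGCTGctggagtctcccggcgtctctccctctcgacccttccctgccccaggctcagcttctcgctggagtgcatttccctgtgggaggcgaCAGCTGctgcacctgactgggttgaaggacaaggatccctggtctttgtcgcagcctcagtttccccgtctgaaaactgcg
Kcnn4 (chr7:24370013-24370312, plus strand): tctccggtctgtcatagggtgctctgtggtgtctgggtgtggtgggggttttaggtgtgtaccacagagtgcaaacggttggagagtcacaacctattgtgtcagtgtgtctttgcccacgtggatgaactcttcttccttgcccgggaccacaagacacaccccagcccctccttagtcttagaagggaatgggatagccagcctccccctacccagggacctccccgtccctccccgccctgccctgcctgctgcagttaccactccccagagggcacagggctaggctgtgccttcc
Kcnj2 (chr11:111065914-111066213, plus strand): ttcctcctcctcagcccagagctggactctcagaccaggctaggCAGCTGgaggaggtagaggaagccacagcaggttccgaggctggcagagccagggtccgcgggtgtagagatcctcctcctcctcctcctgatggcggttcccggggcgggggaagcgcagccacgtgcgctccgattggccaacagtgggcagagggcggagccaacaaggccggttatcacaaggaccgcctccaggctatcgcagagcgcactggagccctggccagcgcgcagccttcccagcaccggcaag
The Kcnn1 window shown held 3 matches to CAGCTG, and the window of a second RefSeq start of Kcnn1, at chr8:70856959-70857258 and not printed, held 1. The Kcnj2 window held 1 match and the Kcnn3 and Kcnn4 windows 0. CAGCTG reads the same on both strands and does not overlap the MEF2 motif, which was searched on both strands as well. RefSeq windows were at hand for 67 of the 92 genes. CAGCTG was found for 3 of 9 such genes that rose (Kcnc2, Kcnj2 and Kcnn1), 1 of 5 that fell (Kcnk2), 17 of all 67 potassium channel genes and 18.3% of all 27025 genes with a window. The MEF2 motif was found for 0 of the 9 that rose, 0 of the 5 that fell, 2 of all 67 and 3.7% of all genes. These matches describe the letters in the windows only.

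Among pore-forming voltage-gated genes, delayed rectifiers that were very low in myoblasts rose. Kcna7 encodes Kv1.7, a channel of the Shaker family known from skeletal muscle and heart. It had 49, 55 and 54 counts in myotubes and 1, 0 and 1 counts in myoblasts, in a ratio of 121 (95% counting interval 32.8 to 1000.0, adjusted p = 8.55e-14). Kcnc1, the fast delayed rectifier Kv3.1, had 8.84, 7.57 and 9.21 CPM in myotubes against 0.179, 0.487 and 0.0941 CPM in myoblasts, and rose by 4.95 (SE 0.32, adjusted p = 1.92e-13).

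Other voltage-gated members moved less or the other way. Kcnc2, the Kv3.2 gene, had 11.3, 11.5 and 9.34 CPM in myotubes against 6.28, 5.28 and 7.72 CPM in myoblasts, a rise of 0.74 (SE 0.15, adjusted p = 1.18e-04) that did not pass the test against 2-fold. Kcna3 encodes Kv1.3, a channel best known from lymphocytes. It had 5, 3 and 2 counts in myotubes against 18, 20 and 19 counts in myoblasts and fell by 1.87 (SE 0.42, adjusted p = 2.61e-04). Its call past 2-fold (adjusted p = 0.036) was lost in 5 of 14 alternatives: by DESeq2's Wald test, by limma-voom, and without myoblast library 3, myotube library 2 or myotube library 3. Kcnh7, an ether-à-go-go related gene, had 25, 31 and 16 counts in myotubes against 4, 7 and 1 counts in myoblasts and rose by 3.15 (SE 0.42, adjusted p = 1.85e-07). Its exons overlap those of Gca on the other strand over 4.57% of their length, so part of its count is uncertain. Kcnh2, which encodes the ERG1 channel of the cardiac rapid delayed rectifier, had 6.56, 6.76 and 7.07 CPM in myotubes against 5.47, 5.68 and 6.49 CPM in myoblasts. Its lowest myotube library lay just above its highest myoblast library, but the log2 difference of 0.21 did not pass (SE 0.16, adjusted p = 0.22). Of the 3 Kcnd genes of transient current, Kcnd2 had 1 count and Kcnd3 had 0. Kcnd1, at 33 counts in myotubes and 25 in myoblasts in total, did not pass the filter of the main test. With no filter it was called higher by edgeR's quasi-likelihood test (log2 change 0.95, adjusted p = 0.0405). It also entered with a filter of 10 counts in at least 3 libraries, where 24 members were tested and 14 were called higher.

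The silent subunit gene Kcnf1 fell. Silent subunits form no channel alone and modify other voltage-gated channels by joining them. Kcnf1 (382571, chromosome 12 at 17172100 to 17176888) had 5.27, 7.71 and 4.54 CPM in myotubes against 30.9, 29.1 and 30.4 CPM in myoblasts. The groups did not overlap, and it fell by 2.37 (SE 0.13, adjusted p = 8.30e-15). None of the other 9 genes of the silent class (Kcng, Kcns and Kcnv) entered the test, and 6 of the class had 0 counts in every library.

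Of the 5 Kcnq genes, which encode channels with a low opening threshold, 2 were tested and both rose. Kcnq1, the slow cardiac delayed rectifier, had 13, 16 and 15 counts in myotubes and 0 in all myoblast libraries, at least 22.4-fold higher than 3 counts over the myoblast group would give (adjusted p = 1.49e-08). Its exons share 2.96% of their length with the antisense transcript Kcnq1ot1. Kcnq3 had 0 counts in every library and Kcnq5 had 1 count in all.

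**Figure D3:**
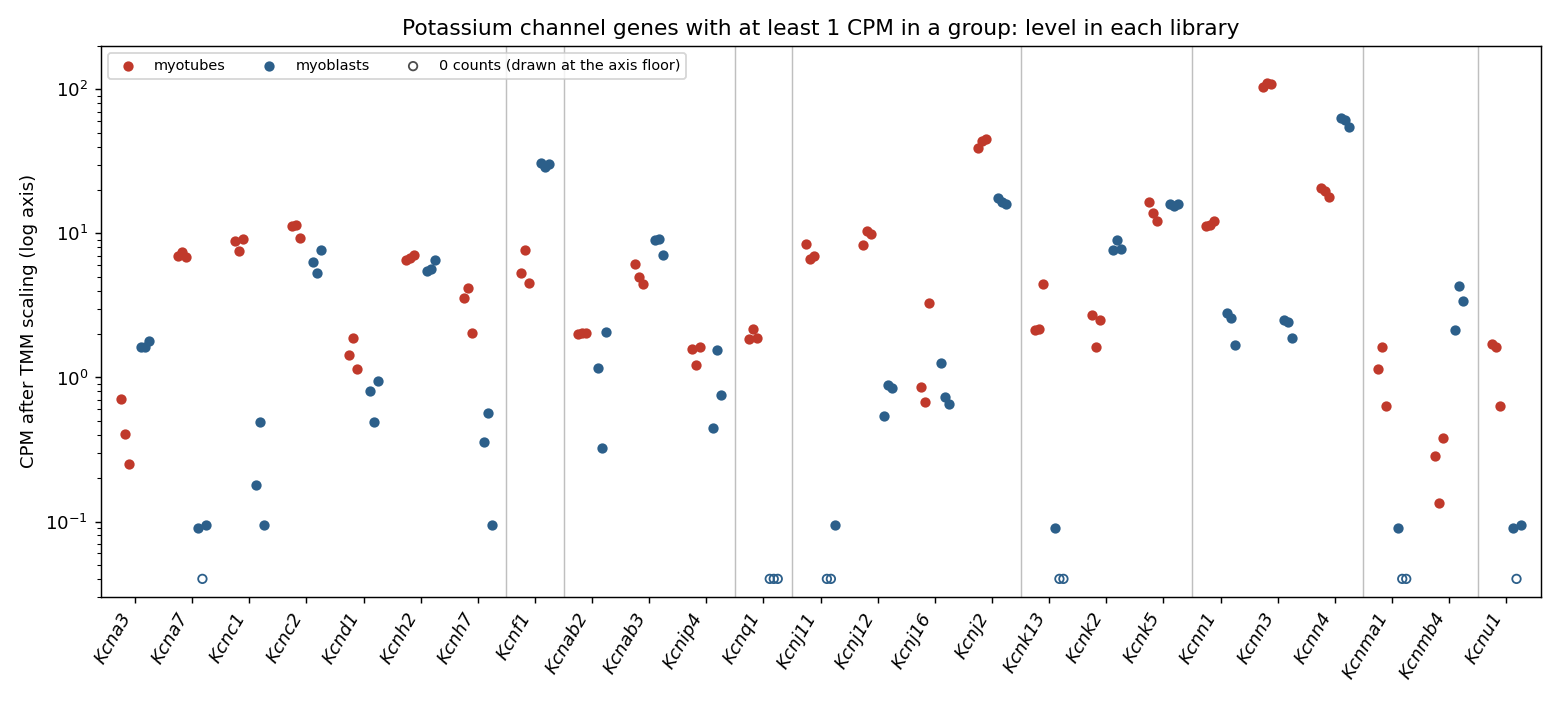
CPM after TMM scaling (log axis) in each library for 25 potassium channel genes that reached a mean of at least 1 CPM in a group, with myotubes left of myoblasts and classes parted by lines. Kcnn3 stands between 103 and 111 CPM in myotubes and at 2.51 CPM or less in myoblasts, while Kcnn4 and Kcnf1 stand at 29.1 CPM or more in myoblasts and at 20.8 CPM or less in myotubes.

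All 3 tested inward rectifier genes of 15 in the Kcnj class rose, on different scales. Kcnj2 encodes Kir2.1, the main strong inward rectifier of muscle. It was expressed in both states, with 38.9, 43.5 and 45 CPM in myotubes against 17.5, 16.6 and 16.1 CPM in myoblasts, and rose by 1.35 (SE 0.08, adjusted p = 1.22e-13). Kcnj12, the Kir2.2 gene, had 8.27, 10.4 and 9.84 CPM in myotubes against 0.539, 0.893 and 0.847 CPM in myoblasts, a log2 change of 3.62 (SE 0.24, adjusted p = 3.40e-13). Kcnj11 encodes Kir6.2, the pore of the ATP-sensitive channel. It had 59, 49 and 55 counts in myotubes and 0, 0 and 1 counts in myoblasts, in a ratio of 249 (95% counting interval 44.0 to 9880.0, adjusted p = 9.63e-14). Kcnj8, the alternative pore Kir6.1, had 1 count in each group. Kcnj2 (16518) lies on chromosome 11 at 111066164 to 111076825 beside Kcnj16 (16517) at 110968033 to 111027968. Kcnj16 was too low to test, with 6, 5 and 26 counts in myotubes and 14, 9 and 7 counts in myoblasts, so its higher myotube mean rests on library 3.

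Leak channel genes of the Kcnk family moved apart. Kcnk5, the TASK-2 gene, was the third highest of the 92 per kilobase in myoblasts and had 16.4, 13.9 and 12.2 CPM in myotubes against 16.0, 15.4 and 16.1 CPM in myoblasts. The groups overlapped and the log2 difference of −0.16 did not pass (SE 0.11, adjusted p = 0.188). Without myotube library 1 the difference was −0.28 (adjusted p = 0.0461), and with total counts in place of TMM it was −0.31 (adjusted p = 0.0154), in a range of 0.0154 to 0.634 over 14 alternatives. Kcnk2 encodes TREK-1, a leak channel opened by stretch and lipids. It had 2.71, 1.62 and 2.52 CPM in myotubes against 7.63, 9.01 and 7.81 CPM in myoblasts and fell by 1.83 (SE 0.20, adjusted p = 8.60e-09), with an annotated antisense transcript over 12.2% of its exon length. Kcnk13, the THIK-1 gene, had 15, 16 and 35 counts in myotubes and 1, 0 and 0 counts in myoblasts, in a ratio of 101 (95% counting interval 17.5 to 4040.0, adjusted p = 5.72e-09). Myotube library 3 held more Kcnk13 counts than the other two together. The other 11 genes of the class did not enter the test, and 6 of the class had 0 counts.

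Of 11 auxiliary subunit genes 3 were tested, and of 5 genes of the big-conductance class 1. Kcnab3, a cytosolic beta subunit of Kv1 channels, had 6.13, 5.00 and 4.42 CPM in myotubes against 8.98, 9.09 and 7.06 CPM in myoblasts and fell by 0.71 (SE 0.17, adjusted p = 5.32e-04), less than the 2-fold test can call. An annotated antisense transcript overlaps 5.13% of the Kcnab3 exon length. Kcnab2, another beta subunit, did not pass, with 14, 15 and 16 counts in myotubes against 13, 4 and 22 in myoblasts (log2 difference 0.81, SE 0.40, adjusted p = 0.0673), and its myoblast libraries varied widely. Without myoblast library 3 its log2 difference was 1.45 (adjusted p = 0.00438, range over 14 alternatives 0.00438 to 0.396). Kcnip4, a calcium-binding partner of Kv4 channels, did not pass either, with 11, 9 and 13 counts in myotubes against 5, 19 and 8 in myoblasts (log2 difference 0.65, SE 0.40, adjusted p = 0.138). Without myoblast library 2 the difference was 1.29 (adjusted p = 0.0131, range over 14 alternatives 0.0131 to 0.468). Annotated antisense transcripts overlap 7.36% of the Kcnip4 exon length. Kcnmb4, a beta subunit of the big-conductance channel, had 2, 1 and 3 counts in myotubes against 24, 53 and 36 in myoblasts and fell by 3.56 (SE 0.46, adjusted p = 1.07e-07). Annotated antisense transcripts cover 31.5% of its exon length, so its count is uncertain. The pore gene Kcnma1 was too low to test, with 8, 12 and 5 counts in myotubes against 1, 0 and 0 in myoblasts, in a ratio of 38.1 (95% counting interval 6.24 to 1570.0). An annotated antisense transcript covers 5.98% of the Kcnma1 exon length. Kcnu1, known from sperm, was also too low, with 12, 12 and 5 counts in myotubes against 1, 0 and 1 in myoblasts, in a ratio of 22.1 (interval 5.6 to 191).

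**Figure D4:**
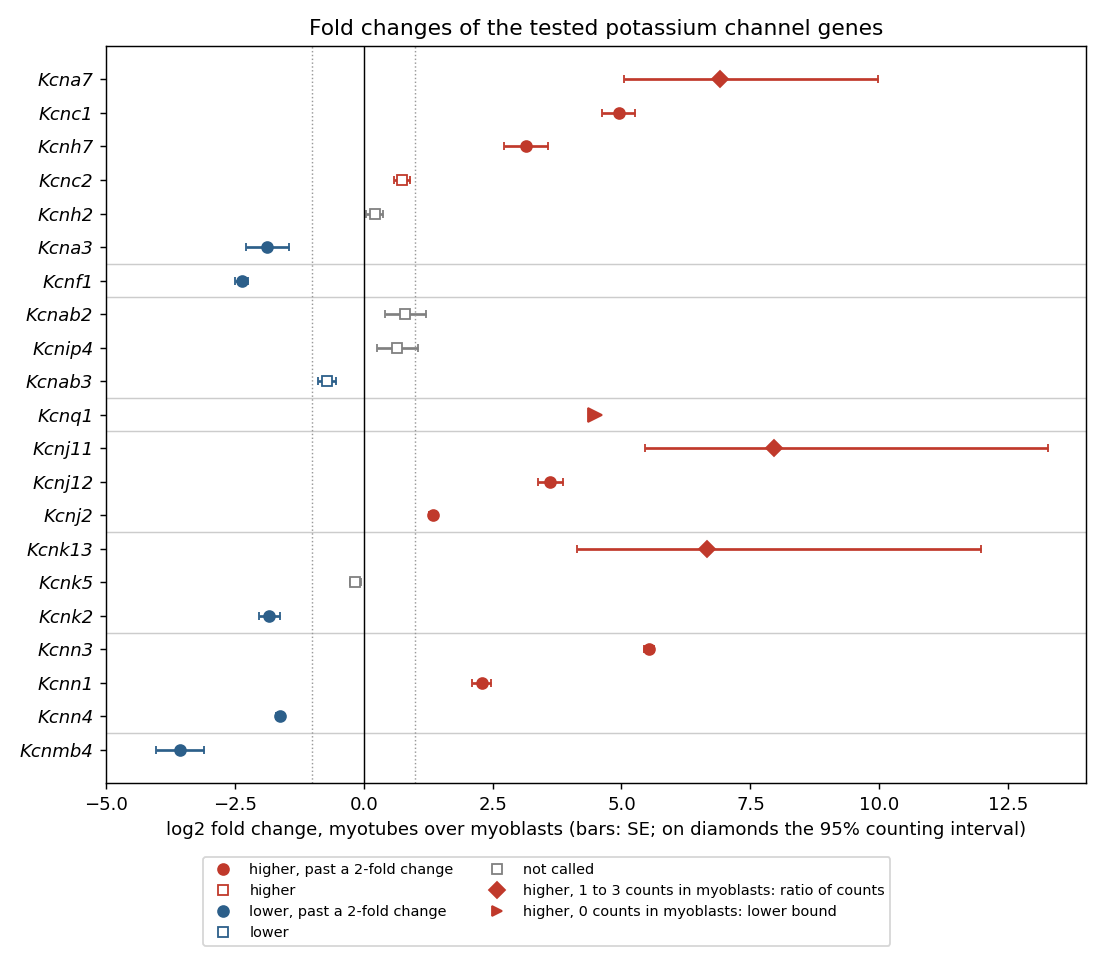
Log2 fold change of myotubes over myoblasts for 21 of the tested genes by class, with SE bars, or as a ratio of counts with its 95% counting interval (diamonds) or a lower bound (triangle) where myoblasts had 3 counts or fewer. Dotted lines mark a 2-fold change, and 10 of the genes drawn on the right and 5 on the left passed the test against it.

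Summed over all 92 genes, the level per kilobase was 70.6 ± 2.17 CPM in myotubes and 39.6 ± 1.27 CPM in myoblasts (SD, n = 3 each), and the 3 libraries of each group stood apart from those of the other. The Kcnj sum was 14.1 ± 0.90 CPM per kilobase in myotubes and 3.8 ± 0.189 in myoblasts, and the pore-forming voltage-gated sum 12.5 ± 0.569 in myotubes and 3.5 ± 0.338 in myoblasts. The Kcnn sum differed less, at 16.6 ± 0.265 in myotubes and 12.4 ± 1.06 in myoblasts. The silent class had 1.28 ± 0.383 in myotubes and 6.31 ± 0.188 in myoblasts. Nearly all of it was Kcnf1, at 1.22 in myotubes and 6.29 in myoblasts, so this sum repeats the result for that gene. As shares of the whole, Kcnn made up 23.3 to 24% in myotube libraries and 29.3 to 32.9% in myoblast libraries. The 5 highest genes per kilobase in myoblasts were Kcnn4, Kcnf1, Kcnk5, Kcnj2 and Kcnab3, and in myotubes Kcnn3 ranked 2, Kcnj2 ranked 3, Kcnk5 ranked 5, Kcnn4 ranked 6 and Kcnf1 ranked 14. With the length of the longest transcript in place of all exons, Kcnn3 had 12.9 CPM per kilobase in myotubes and Kcnn4 had 5.33.

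**Figure D5:**
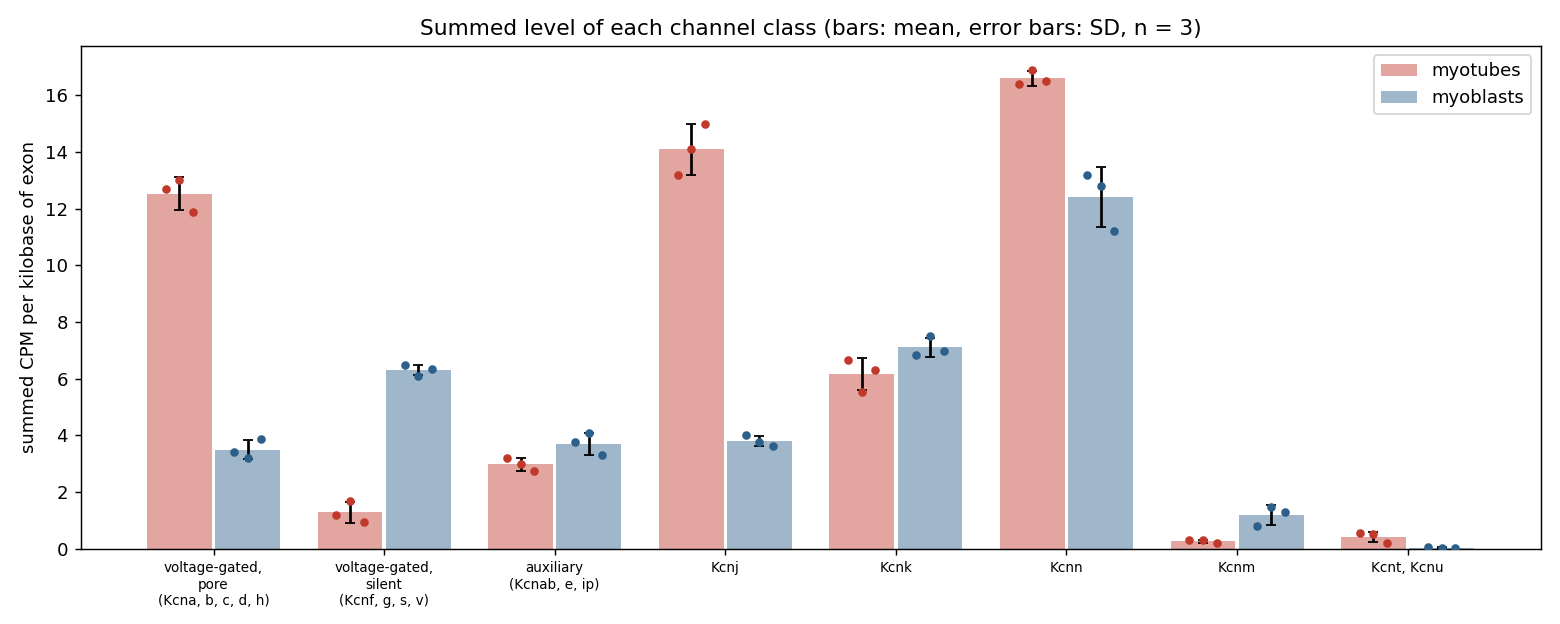
Summed CPM per kilobase of exon for 8 of the channel classes, with bars for the mean of 3 libraries, error bars for the SD and points for libraries, myotubes left of myoblasts. The Kcnj and pore-forming voltage-gated sums are higher in all myotube libraries, and the silent sum, nearly all of it Kcnf1, is higher in all myoblast libraries.

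Genes that work with these channels were read from 2 further lists. Of 20 partner genes, 11 were tested, 8 rose and 2 fell. Abcc9, the sulfonylurea receptor that joins Kir6.2 in muscle, had 53, 49 and 49 counts in myotubes and 0 in all myoblast libraries, at least 76.8-fold higher than 3 counts over the myoblast group (adjusted p = 4.00e-13). Its paralogue Abcc8, which is the receptor of beta cells, was too low to test, with 7, 9 and 10 counts in myotubes against 4, 3 and 1 in myoblasts. Amigo1, an adhesion protein that accompanies voltage-gated channels, had 25.1 ± 1.5 CPM in myotubes and 10.5 ± 0.628 CPM in myoblasts (SD, n = 3 each) and rose by 1.26 (edgeR adjusted p = 2.58e-11). Lingo1, a partner of big-conductance channels, had 17, 32 and 35 counts in myotubes against 1, 2 and 1 in myoblasts and rose by 4.85 (adjusted p = 4.57e-10). The ubiquitin ligase gene Nedd4l, whose product removes channels from the membrane, fell by 0.35 and the scaffold gene Dlg1 by 0.32.

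Of 27 potassium transport genes, 16 were tested, 11 rose and 3 fell. Tmem38a and Tmem38b, the potassium-permeable TRIC channels of the sarcoplasmic reticulum, rose by 4.84 and 3.38. Slc12a2, a sodium-potassium-chloride importer, rose by 2.59, while the potassium-chloride exporter Slc12a7 fell by 0.67. Over all genes tested 40.2% were called higher, so the counts of both lists describe these genes and no more.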

How the data were processed

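The 3 myotube and 3 myoblast libraries were prepared from TRIzol-extracted RNA with a kit for stranded mRNA, per the labels' protocols. Raw counts of reads for each Entrez gene were deposited. The submitters' processing notes name fastp, STAR, featureCounts and mm10. Tool versions, strand setting and the handling of reads with several matches: not given in the sources used here. Read counts of genes that overlap an antisense transcript are therefore uncertain.

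Counts were tested with edgeR 4.0.16 in R 4.3.3 (robust quasi-likelihood F test, TMM factors of 0.9489 to 0.9519 in myotubes and 1.05 to 1.055 in myoblasts). Genes were first filtered with filterByExpr at a minimum count of 10, applied as a CPM cut at the median library size, and 15 counts in total. This left 12800 genes; p-values were adjusted by Benjamini-Hochberg over all of them with a threshold of 0.05. The test against a 2-fold change was glmTreat. The SE is the absolute log2 change over the square root of F. CPM are after TMM scaling, and group values are mean ± SD. Where a group had 1 to 3 counts, ratios carry 95% limits from the exact binomial distribution, and for 0 counts the fold is a bound against 3 counts over the group; both cover counting error only. Exon lengths, overlaps and copies of 50-base windows came from GENCODE M21, and coordinates and start regions from RefSeq (GRCm38). All 92 members matched for exons and gene coordinates, and 67 of them had start regions. Of all table IDs, 25275 matched RefSeq. On simulated counts with 200 changed genes among 12673 tested, 90.0 to 96.0% of 2-fold changes were recovered. Few genes changed there, as many up as down, whereas 79.5% of genes tested were called in these data. The recovery may therefore not hold for these members, least of all at low counts.

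Genes were named where a group mean reached 1 CPM, or where a call had a log2 change beyond 1. The members and lists were chosen with earlier results of these data known. No pair of replicates was identical (chi-square per degree of freedom 1.35 to 3.22); no label ties a replicate number to a culture or day. Alternatives were DESeq2 1.42.0 size factors and Wald test, total counts, limma-voom (limma 3.58.1), 3 other filters, a replicate block and leaving out each library. Some genes and the level of 1 class are not reported here.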

Additional observations from a re-analysis of the deposited data

How the results depend on the processing

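All 19 called members kept their direction and their call in each of 14 alternatives, and in 322 gene-by-alternative values 0 reversed. Past 2-fold, 4 to 5 members were lower and 12 to 15 higher over these alternatives, and Kcna3 alone lost that call. The 6 changes were calls gained by Kcnab2 in limma-voom, with no filter and without myoblast library 3, by Kcnip4 without myoblast library 2, and by Kcnk5, lower, with total counts (log2 −0.31) and without myotube library 1 (log2 −0.28); the cause was not tested. Scaling by total counts moved the median log2 change of all genes to −0.13, from 0.0164 with TMM.

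With no filter on low counts 62 members were tested and 20, not 13, were called higher; the additions all had few counts. By class, no filter called 1 Kcnm gene higher and 2 lower, 1 gene of Kcnt and Kcnu higher and 2 auxiliary genes higher, where the values were otherwise 0, 1, 0 and 0. Limma-voom called 1 auxiliary gene higher, and total counts called 2 Kcnk genes lower in place of 1. Leaving out single libraries gave 1 to 2 Kcnk genes lower, 0 to 1 Kcnm genes higher, 0 to 1 genes of Kcnt and Kcnu higher and 0 to 1 auxiliary genes higher. In the potassium transport list 5 genes, not 3, were lower with no filter and with the filter of 10 counts in 3 libraries. With the replicate number as a block, 13 members were higher and 6 lower, as without it, and deviations of libraries with the same number correlated at −0.00844, 0.00179 and −0.00386 over 12800 genes. Low counts limit the size of changes in Kcna7, Kcnj11, Kcnk13 and Kcnq1, which had 0 to 3 counts in myoblasts.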

Other observations

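Of the 69 members that did not enter the test, 39 had at least 1 count and none had more than 67 in total. With no filter on low counts, edgeR's quasi-likelihood test also called Kcne4 and Kcnmb1, named here after their values were seen. Kcne4, an auxiliary subunit that inhibits some Kv channels, had 7 counts in the myotube group and 0 in the myoblast group (adjusted p = 0.00636). Kcnmb1, the beta subunit of big-conductance channels in smooth muscle, had 3 counts in the myotube group and 20 in the myoblast group (log2 change −2.07, adjusted p = 0.0223). Beside Kcnmb4, it is the other Kcnmb gene with a lower count in myotubes, while the pore gene Kcnma1 had 25 counts in the myotube group and 1 in the myoblast group.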
